A study of Mus musculus with 93 samples.

Results

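The mitochondrially encoded genes are the genes carried by mitochondrial DNA rather than by the chromosomes of the nucleus. They were taken as every gene of the deposited count tables whose name starts with mt-, which gave 37 of 33924 genes: 13 protein genes, 2 rRNA genes and 22 tRNA genes. RNA-seq counts came from 12 libraries of R1 mouse embryonic stem cells, cultured in serum with leukaemia inhibitory factor (LIF). In set 1, 3 wild type (WT) libraries stood beside 3 libraries of cells with the Ring1b I53A point mutation, a change in the catalytic subunit of PRC1, a Polycomb complex that adds ubiquitin to histone H2A. In set 2, another 3 WT libraries stood beside 3 libraries labelled H1b/c/d/e-QKO, a quadruple knockout of H1 linker histones, which sit on the DNA that joins nucleosomes. Nothing in the labels says how many clones stand behind a genotype or whether replicates were grown separately, so the p-values speak for the spread of these libraries alone, and part of it may be technical.

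Mitochondrial DNA is a small circle, present in many copies per cell, that is read from both strands into long precursor RNAs. The tRNAs lie between most of the other genes, and cutting them out of the precursors frees the messenger RNAs and the rRNAs. The proteins are subunits of the respiratory chain: mt-Nd1 to mt-Nd6 and mt-Nd4l belong to complex I (NADH dehydrogenase), mt-Cytb to complex III, mt-Co1 to mt-Co3 to complex IV (cytochrome c oxidase), and mt-Atp6 and mt-Atp8 to ATP synthase. The rRNAs and tRNAs serve the ribosomes that make these proteins inside the organelle, whereas the polymerase (Polrmt), the packaging factor Tfam and most respiratory subunits are encoded in the nucleus.

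Total counts per library ranged from 12585621 to 23378930, and replicate 3 was the shallowest of both set 1 groups and came from tables with another naming style than replicates 1 and 2. Rnf2, the gene of Ring1b, had 2324 to 3427 counts in WT and 1086 to 1771 in I53A of set 1, which does not check a point mutation. In set 2, Hist1h1b had 2 to 9 counts in WT and 53 to 72 in the libraries labelled QKO, and Hist1h1c 143 to 205 and 129 to 202. Hist1h1d had 3 to 14 and 5 to 15 counts, and Hist1h1e 0 to 6 and 3 to 12. Neither Hist1h1b nor Hist1h1c was depleted, and the others had too few counts to show a loss. Such counts of transcripts do not check the knockout. All 10 embryonic stem cell markers examined, Pou5f1 and Nanog among them, were at 1 CPM (the count scaled to the library total) or more in each of the 12 libraries. Summed, they stood at 6310 to 6973 CPM in WT and 5447 to 5869 in I53A. In set 2 they stood at 6801 to 6928 in WT and 7928 to 8003 in the libraries labelled QKO. By edgeR, 1 of the 10 was called higher and 4 lower in I53A, beside 18.1% and 17.4% of all genes tested. In the libraries labelled QKO 6 were higher and 3 lower, beside 28.7% and 29.0%. The 10 fibroblast markers summed to 25.9 to 27.1 CPM in WT and 61.0 to 68.4 in I53A, and to 22.1 to 22.8 in WT and 41.2 to 42.5 in the libraries labelled QKO. Of these, Lum was at 0 counts in I53A, Lum and Dcn in the libraries labelled QKO, Dcn and Postn in WT of set 1, and 6 of them, Col3a1 and Acta2 included, in WT of set 2. Of the 5 fibroblast markers tested in I53A, edgeR called all 5 higher, beside 18.1% of all genes tested. Of the 4 tested in set 2 it called 3 higher and none lower, beside 28.7% and 29.0%. The filter on low counts can keep a gene that is high in 1 group only. The part of these marker differences in the results was not tested.

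Transcripts of 3 genes made up most of the mitochondrial counts. Per kilobase of gene, mt-Co1, the catalytic core of cytochrome c oxidase (mm9, chromosome M, 5328 to 6872), had the highest level in WT of set 1, at 11025 ± 1654 CPM per kb (mean ± SD, n = 3, as for all levels per kb here). It was followed by mt-Cytb, the cytochrome b of complex III (14145 to 15288), at 4433 ± 215 CPM per kb and by mt-Nd1 (2751 to 3707) at 4048 ± 186 CPM per kb, 2 levels whose replicates overlapped. Below them came mt-Nd2 at 1704 ± 368, mt-Nd5 at 1598 ± 237, mt-Nd6 at 1500 ± 233 and mt-Nd4 at 1280 ± 259 CPM per kb, with ranges that overlapped from each to the next. In WT of set 2 mt-Co1 was again first, at 4360 ± 169 CPM per kb, but mt-Nd1 at 2555 ± 158 stood above mt-Cytb at 2134 ± 110 CPM per kb.

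In each of the 4 groups, both rRNAs had lower mean levels per kilobase than the 7 messenger RNAs named above, and higher ones than the other 6. Per kilobase, mt-Rnr1, the RNA of the small ribosomal subunit (70 to 1024), stood at 170 CPM per kb in WT of set 1 and 124 in WT of set 2. For mt-Rnr2, the RNA of the large subunit (1094 to 2675), the mean level in WT of set 1 was 432 ± 410 CPM per kb, a spread that came from replicate 3. The sources used here do not say how RNA was selected for the libraries. Of the 22 tRNA genes, which are 59 to 75 bases long, 5 had no count in any of the 12 libraries (mt-Tf, mt-Ts1, mt-Td, mt-Tk and mt-Tg) and 6 reached 100 counts in at least 1 library. Fragments that reach from a tRNA into a neighbouring gene could be lost in counting, so tRNA counts need not follow tRNA levels.

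**Figure D1:**
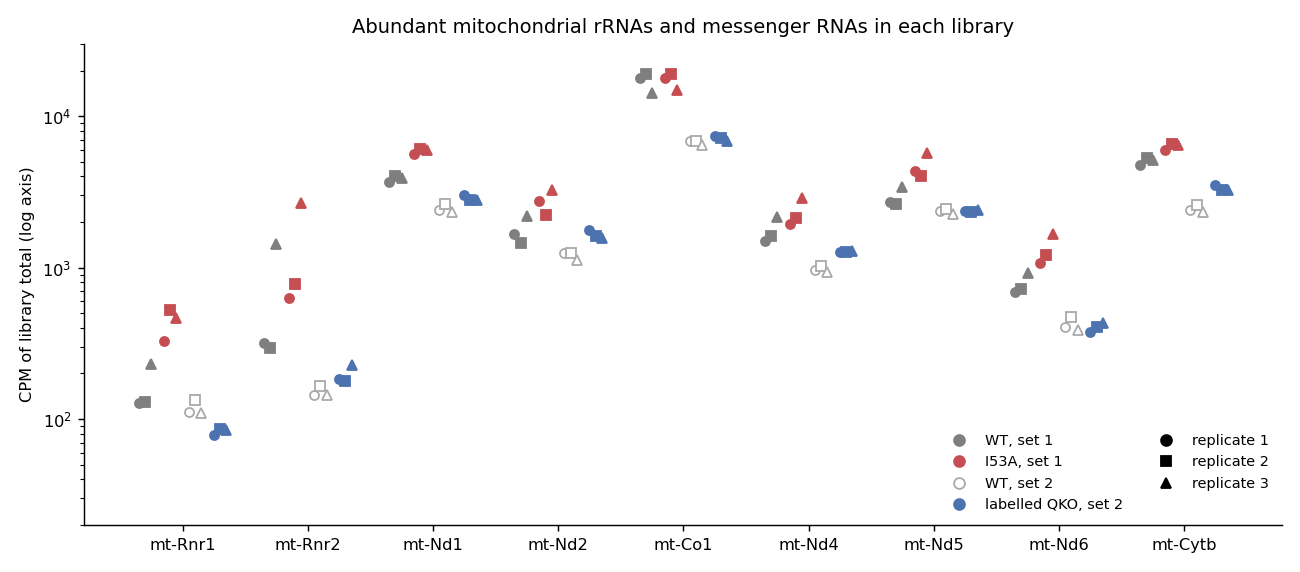
CPM of the library total (log axis) for the 2 rRNAs and the 7 abundant protein genes, with 1 point per library, colour for the group and shape for the replicate number. In set 1, mt-Rnr2 of replicate 3 stands apart in both groups (1433 CPM in WT and 2693 in I53A), and mt-Co1 of WT and I53A covers the same range.

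The share of all library counts that fell on mitochondrial genes was higher in I53A and in the libraries labelled QKO than in the WT of their set, by 1.24 times in set 1 and 1.15 times in set 2. In WT of set 2 replicates 1 to 3 had 1.71%, 1.77% and 1.63%, and the libraries labelled QKO had 2.01%, 1.93% and 1.91%. The groups did not overlap in either set, and in set 1 the ratio was 1.21 over replicates 1 and 2 and 1.31 for replicate 3. A share in bulk RNA cannot tell more mitochondrial RNA per cell from less RNA of other genes, nor a change in all cells from a change in some.

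By class, the protein genes set the total. In WT of set 1 they took 3.30%, 3.47% and 3.19% of the library and in I53A 3.96%, 4.12% and 4.08%. In set 2 they took 1.68%, 1.74% and 1.599% in WT and 1.99%, 1.90% and 1.87% in the libraries labelled QKO. The protein share thus was above that of each WT library of its set in every I53A library and in every library labelled QKO.

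The rRNA share differed more between replicate 3 and the others than between genotypes. It was 0.0446%, 0.0427% and 0.166% in WT of set 1 and 0.0960%, 0.131% and 0.316% in I53A. The groups overlapped, although I53A was higher by 2.59 times over replicates 1 and 2 and by 1.90 times in replicate 3. In set 2 the rRNA share was 0.0255%, 0.0300% and 0.0254% in WT and 0.0263%, 0.0263% and 0.0312% in the libraries labelled QKO, a ratio of 1.04 that turned to a difference of -0.000631 percentage points without QKO replicate 3.

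The tRNA share was the smallest of the classes. It was 0.00292%, 0.00260% and 0.00517% in WT of set 1 and 0.00471%, 0.00422% and 0.00696% in I53A. In set 2 it was 0.00175%, 0.00176% and 0.00142% in WT and 0.00123%, 0.00128% and 0.00171% in the libraries labelled QKO. The groups overlapped in both sets, and in set 2 replicate 3 lay on the other side (ratio 1.20) from replicates 1 and 2 (ratio 0.715).

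**Figure D2:**
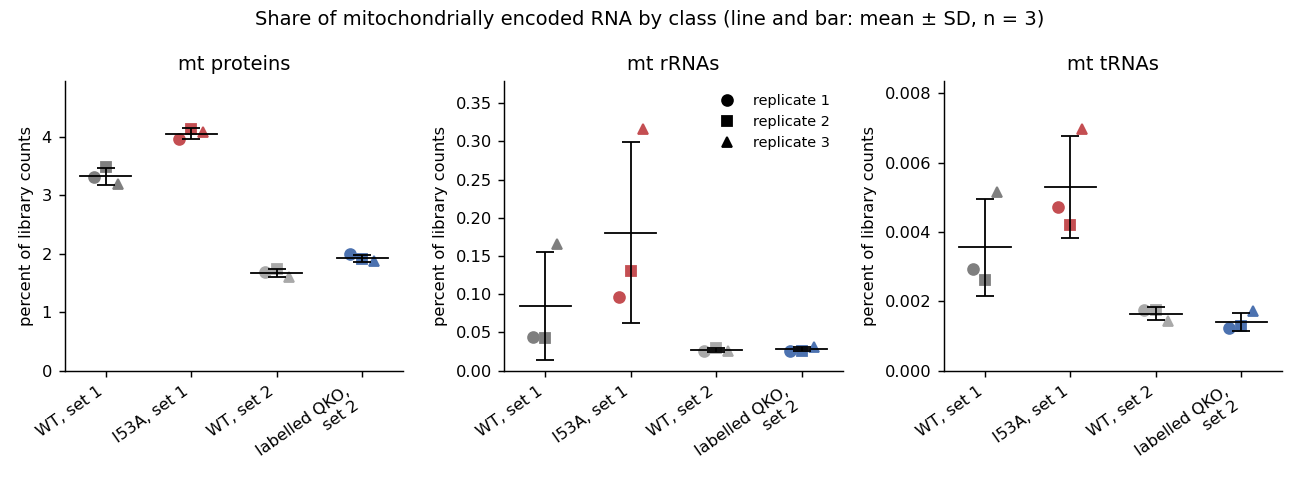
Percent of library counts on mitochondrial protein, rRNA and tRNA genes, with 1 point per library (shape for the replicate number) and the mean ± SD of each group of 3. Protein genes of I53A lie between 3.96% and 4.12%, above the 3.19% to 3.47% of their WT, whereas rRNA and tRNA shares of set 1 are highest in replicate 3 of both groups.

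The comparison of I53A with WT asks which genes change when Ring1b carries the mutation. Of the 37 genes, 18 passed the filter on low counts and 19 did not. Log2 fold changes were fitted with edgeR over all genes of the table, with counts scaled by TMM. Of the 18, 8 rose (adjusted p under 0.05) and none fell, where 18.1% of all 15536 genes tested rose and 17.4% fell. The unadjusted p was under 0.05 for 8 and for none in the lower direction. DESeq2 called 10 higher and none lower, where it called 5422 of the 24663 genes with counts in either direction. The 8 were 5 of 9 protein genes tested, 1 of 2 rRNAs and 2 of 7 tRNAs. The groups did not overlap for 7 of the 18, against 49.3% of all genes tested. The median log2 fold change was 0.60 over the tested proteins and 0.98 over the tested tRNAs, beside -0.0010 over all genes tested.

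Among the rRNAs, mt-Rnr1 rose. Its values were 127, 130 and 231 CPM in the WT replicates and 330, 528 and 465 CPM in I53A. All I53A libraries were above all WT libraries, with a ratio of 3.33 over replicates 1 and 2 and 2.02 in replicate 3. The log2 fold change was 1.42 ± 0.29 (SE), with an edgeR adjusted p of 0.00957. With the replicate number as a block this call was lost (adjusted p = 0.0554), as it was without the filter on low counts (adjusted p = 0.0542). The block was chosen from these same data and rests mainly on replicate 3 standing apart, which limits every p-value given with it.

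For mt-Rnr2 the WT replicates had 319, 297 and 1433 CPM and the I53A replicates 630, 778 and 2693 CPM. Replicate 3 was several times higher than the others in both groups, so the groups overlapped. The ratio was 2.29 over replicates 1 and 2 and 1.88 in replicate 3. The log2 fold change of 0.98 ± 0.92 did not pass edgeR's test (adjusted p = 0.466), while the fit with the replicate block gave 1.08 and an adjusted p of 0.0166.

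The complex I genes mt-Nd1, mt-Nd2, mt-Nd5 and mt-Nd6 rose. mt-Nd1 had 3688, 4043 and 3891 CPM in WT and 5673, 6104 and 5972 CPM in I53A. This was the tightest of the increases, with groups far apart (edgeR adjusted p = 0.000459).

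mt-Nd2 (3914 to 4951) had 1667, 1449 and 2192 CPM in WT and 2736, 2225 and 3263 CPM in I53A. The lowest I53A library lay just above the highest WT library. Its log2 fold change was 0.62 ± 0.18 (edgeR adjusted p = 0.0352).

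mt-Nd5 and mt-Nd6 overlap by 14 bases on opposite strands at 11742 to 13565 and 13552 to 14070, and mt-Nd6 is the only protein gene on the minus strand. mt-Nd5 had 2699, 2630 and 3413 CPM in WT and 4360, 4034 and 5680 CPM in I53A. mt-Nd6 had 695, 724 and 917 CPM in WT and 1068, 1221 and 1660 CPM in I53A. In both genes replicate 3 was the highest of its group and the groups did not overlap. The log2 fold changes were 0.67 ± 0.15 (edgeR adjusted p = 0.0102) and 0.74 ± 0.18 (edgeR adjusted p = 0.0148). The counting set no strand option per the file headers, so reads of mt-Nd6 cannot be told from antisense reads over it.

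mt-Nd4 (10167 to 11544) had 1499, 1622 and 2169 CPM in WT and 1944, 2132 and 2889 CPM in I53A. I53A was higher within each replicate number, by 1.31 times over replicates 1 and 2 and 1.33 in replicate 3, but WT replicate 3 lay above I53A replicates 1 and 2. The log2 fold change of 0.38 ± 0.19 did not pass edgeR's test (adjusted p = 0.153), whereas with the replicate block the adjusted p was 1.76e-08.

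mt-Cytb rose less. It had 4795, 5263 and 5157 CPM in WT and 6010, 6524 and 6442 CPM in I53A, without overlap. Its log2 fold change was 0.30 ± 0.07 (edgeR adjusted p = 0.0123).

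mt-Co1, the most abundant of the 37, did not pass the test. It had 17958, 18997 and 14144 CPM in WT and 17768, 18988 and 14836 CPM in I53A. Values of the same replicate number lay close together and replicate 3 was the lowest in both groups. The log2 fold change was -0.00 ± 0.13, with a 95% interval from -0.30 to 0.30 (edgeR adjusted p = 0.997), and its sign turned under each of the 3 other scalings. Its part of all mitochondrial counts was 53.6%, 54.0% and 42.1% in WT and 43.8%, 44.6% and 33.7% in I53A.

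**Figure D3:**
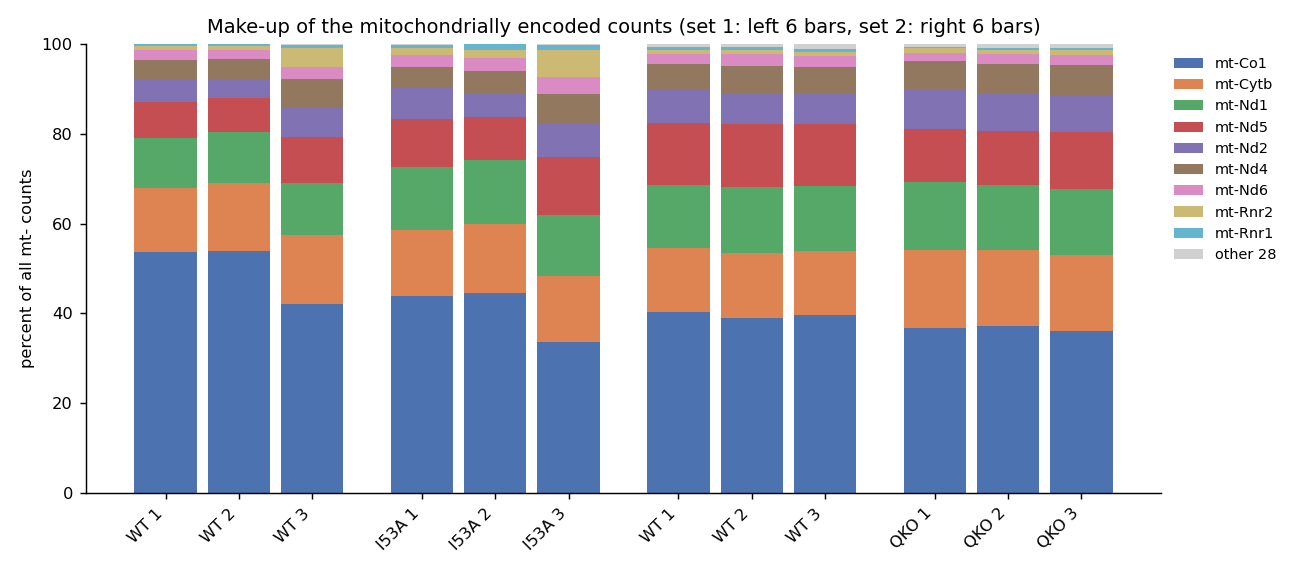
Percent of all mitochondrial counts taken by mt-Co1, mt-Cytb, mt-Nd1, mt-Nd5, mt-Nd2, mt-Nd4, mt-Nd6, mt-Rnr2, mt-Rnr1 and the other 28 genes, with 1 bar per library adding to 100%. The mt-Co1 part is 42.1% to 54.0% in WT and 33.7% to 44.6% in I53A, and 38.9% to 40.4% and 36.0% to 37.2% in WT and the libraries labelled QKO of set 2.

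Among the tRNAs, counts over mt-Tn (asparagine) and mt-Tc (cysteine) rose, neighbours that lie on the minus strand at 5089 to 5159 and 5192 to 5257. As no strand option was set, reads of these tRNAs, and of mt-Te and mt-Tp, cannot be told from plus-strand reads over them. mt-Tc had 3.31, 3.05 and 5.15 CPM in WT and 10.8, 10.7 and 6.83 CPM in I53A. Its groups did not overlap, with a ratio of 3.39 over replicates 1 and 2 and 1.33 in replicate 3, and the log2 fold change was 1.31 ± 0.26 (edgeR adjusted p = 0.00582). mt-Tn had 2.13, 2.77 and 3.48 CPM in WT and 8.31, 13.2 and 3.34 CPM in I53A. Its increase (log2 fold change 1.58 ± 0.47, edgeR adjusted p = 0.0345) was carried by replicates 1 and 2 (ratio 4.38), and replicate 3 had a ratio of 0.958. The call for mt-Tn was lost with the replicate block (edgeR adjusted p = 0.0595) and without the filter on low counts (0.102).

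The other tested tRNAs did not pass. mt-Te (glutamate, minus strand, 14071 to 14139) lies beside mt-Nd6 and had 0.112, 0.111 and 1.44 CPM in WT and 1.00, 1.07 and 6.59 CPM in I53A. I53A was higher in each replicate number, and the edgeR adjusted p was 0.146, or 0.000122 with the replicate block. By DESeq2 mt-Te was called (adjusted p = 0.0452). mt-Tw (tryptophan) had a log2 fold change of 0.98 ± 0.68 (edgeR adjusted p = 0.304, and 0.0223 with the block). mt-Tp (proline, minus strand) had 17.6, 14.1 and 10.8 CPM in WT and 17.7, 10.6 and 11.998 CPM in I53A, which overlapped.

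Within set 1, most counts of a run of tRNAs after mt-Nd4 came from replicate 3, while every library of set 2 had counts of them. mt-Th (histidine) had 17, 8 and 117 counts in WT and 15, 13 and 138 in I53A. mt-Tl2 (leucine) had 1, 0 and 94 counts in WT and 1, 1 and 107 in I53A, and mt-Ts2 (serine) 0, 0 and 48 and 5, 0 and 54. These differences followed the replicate number and not the genotype, and their cause was not tested.

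With the replicate block 11 of the 18 rose and none fell, where 28.1% of all genes rose and 28.5% fell in that fit, since mt-Rnr1 and mt-Tn were lost and mt-Rnr2, mt-Nd4, mt-Tw, mt-Te and mt-Atp6 were gained. mt-Rnr1, mt-Nd1, mt-Nd5 and mt-Tc kept their calls whichever library was left out, but mt-Rnr1 was not called with replicates 1 and 2 alone (edgeR adjusted p = 0.0569). mt-Nd2 lost its call without WT replicate 1 (edgeR adjusted p = 0.110), WT replicate 2 (0.0986), I53A replicate 1 (0.0880) or I53A replicate 3 (0.0780). mt-Tn lost it without WT replicate 1, 2 or 3 (edgeR adjusted p = 0.119, 0.105 and 0.0646) or I53A replicate 1 or 2 (0.0837 and 0.0964). mt-Nd6 lost it without WT replicate 1 or 2 (edgeR adjusted p = 0.0575 and 0.0588), and mt-Cytb without WT replicate 1 (0.0673) or I53A replicate 2 (0.0597). Without WT replicate 3, mt-Nd4 was called (edgeR adjusted p = 0.0400). Without WT replicate 1 the count of 8 fell to 4, and without WT replicate 2 it fell to 5.

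**Figure D4:**
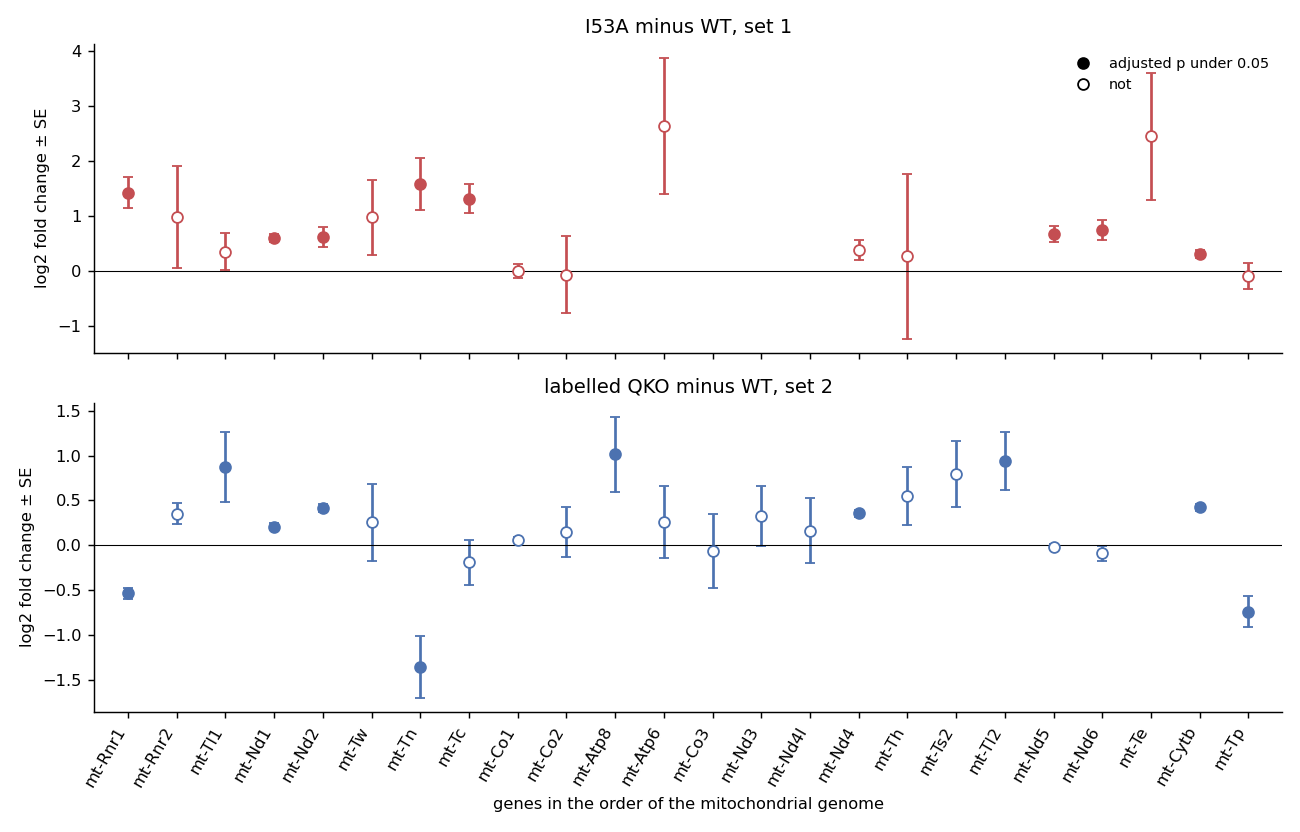
Log2 fold change ± SE of each tested mitochondrial gene in the order of the genome, for I53A against WT (top) and for the libraries labelled QKO against WT (bottom), with filled points for an edgeR adjusted p under 0.05. In the upper panel all filled points lie above 0 (0.30 for mt-Cytb to 1.58 for mt-Tn), and in the lower panel mt-Rnr1, mt-Tn and mt-Tp are filled below 0.

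The comparison of set 2 sets the libraries labelled QKO against WT. Of the 37 genes, 23 passed the filter and 14 did not. By edgeR, 7 rose and 3 fell, where 28.7% of all 15439 genes tested rose and 29.0% fell. The groups did not overlap for 11 of the 23, against 61.4% of all genes tested. The 7 that rose were 5 of 13 protein genes and 2 of 8 tRNAs tested, and the 3 that fell were mt-Rnr1 and 2 tRNAs. The median log2 fold change was 0.21 over the proteins and 0.40 over the tested tRNAs, beside -0.0033 over all genes tested.

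The rRNAs moved apart. mt-Rnr1 had 111, 134 and 110 CPM in WT and 78.2, 85.8 and 85.3 CPM in the libraries labelled QKO. Each of the latter lay below each WT library, and the fall was 0.54 on the log2 scale (log2 fold change -0.54 ± 0.06, edgeR adjusted p = 1.25e-07). mt-Rnr2, the next long gene on the same strand, had 144, 166 and 144 CPM in WT and 185, 178 and 227 CPM in the libraries labelled QKO. Its groups did not overlap either, but the log2 fold change of 0.35 ± 0.12 did not pass edgeR's test (adjusted p = 0.0597).

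Of the protein genes, mt-Cytb, mt-Nd2, mt-Nd4 and mt-Nd1 rose with tight replicates. mt-Cytb had 2406, 2581 and 2336 CPM in WT and 3528, 3243 and 3249 CPM in the libraries labelled QKO (log2 fold change 0.43 ± 0.04, edgeR adjusted p = 3.13e-12). mt-Nd2 had 1257, 1257 and 1126 CPM in WT against 1765, 1607 and 1579 CPM (0.42 ± 0.05, edgeR adjusted p = 7.5e-08). These increases were about as large as each other and the groups stood well apart.

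mt-Nd4 had 959, 1031 and 938 CPM in WT and 1272, 1268 and 1280 CPM in the libraries labelled QKO (log2 fold change 0.36 ± 0.04, edgeR adjusted p = 1.03e-11). mt-Nd1 had 2394, 2616 and 2327 CPM in WT and 3039, 2802 and 2793 CPM (0.21 ± 0.04, edgeR adjusted p = 6.72e-05). Neither gene's groups overlapped. The fifth protein gene called, mt-Atp8, a small subunit of ATP synthase, rests on few counts: 7, 11 and 10 in WT and 15, 12 and 34 in the libraries labelled QKO (1.01 ± 0.42, edgeR adjusted p = 0.0337).

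The other protein genes did not pass. mt-Nd5 had 2380, 2451 and 2269 CPM in WT and 2385, 2338 and 2416 CPM in the libraries labelled QKO. Its log2 fold change was -0.02 ± 0.04 with a 95% interval from -0.09 to 0.05, and the sign turned when library totals alone set the scale. For mt-Co1 the values were 6892, 6882 and 6435 CPM in WT and 7376, 7186 and 6861 CPM in the libraries labelled QKO, a log2 fold change of 0.06 ± 0.04 (95% interval -0.01 to 0.13, edgeR adjusted p = 0.169, and 0.0265 with library totals alone). mt-Nd6 had 405, 474 and 387 CPM against 378, 404 and 429 CPM, which overlapped (edgeR adjusted p = 0.412). mt-Co2, mt-Atp6, mt-Co3, mt-Nd3 and mt-Nd4l had log2 fold changes from -0.06 to 0.33, with SEs of 0.28 to 0.41.

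The tRNAs went both ways. mt-Tn fell from 2.01, 1.52 and 1.39 CPM in WT to 0.684, 0.503 and 0.710 CPM in the libraries labelled QKO, and mt-Tp from 8.60, 9.13 and 7.16 CPM to 3.59, 4.52 and 7.01 CPM. Both lie on the minus strand, but their counts cannot be told from plus-strand reads over them. In both genes the groups did not overlap, narrowly so in replicate 3 of mt-Tp. The log2 fold changes were -1.36 ± 0.34 (edgeR adjusted p = 0.000592) for mt-Tn and -0.74 ± 0.18 (edgeR adjusted p = 0.000758) for mt-Tp.

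The leucine tRNAs rose from low levels. mt-Tl2 had 20, 14 and 16 counts in WT and 33, 29 and 41 in the libraries labelled QKO (log2 fold change 0.94 ± 0.32, edgeR adjusted p = 0.0101). mt-Tl1, which directly follows mt-Rnr2 at 2676 to 2750, had 9, 15 and 9 counts and 26, 11 and 29 counts (0.88 ± 0.39, edgeR adjusted p = 0.0498). The groups of mt-Tl1 overlapped. mt-Tc, mt-Tw, mt-Th and mt-Ts2 had log2 fold changes of -0.19, 0.26, 0.55 and 0.80 and did not pass.

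The calls with few counts depended on single libraries and on the tool. mt-Tl1 was not called without WT replicate 1 (edgeR adjusted p = 0.123), WT replicate 3 (0.206), QKO replicate 1 (0.122) or QKO replicate 3 (0.236). mt-Atp8 was not called without WT replicate 1 (edgeR adjusted p = 0.102), WT replicate 3 (0.0878) or QKO replicate 3 (0.450), nor mt-Tl2 without QKO replicate 3 (0.0540). mt-Rnr2 was called without WT replicate 2 (edgeR adjusted p = 0.0119) or without QKO replicate 1, 2 or 3 (0.0388, 0.00309 and 0.000286). mt-Co2 and mt-Nd4l were called without WT replicate 3 (edgeR adjusted p = 7.43e-06) and WT replicate 1 (0.00319) in turn. mt-Ts2 was called without WT replicate 2 (edgeR adjusted p = 0.0174) or QKO replicate 2 (0.0330), and mt-Th without WT replicate 2 (0.0450). DESeq2 called 5 higher and 3 lower: mt-Tl1 (adjusted p = 0.192), mt-Atp8 (0.145) and mt-Tl2 (0.0507) were lost and mt-Rnr2 (0.0219) was gained. In that fit 8092 of the 24261 genes with counts were called. Without the filter on low counts mt-Tl1 was lost (edgeR adjusted p = 0.0783), and mt-Rnr2 (5.68e-05) and mt-Nd6 (0.0296) were called. With the spread taken from all 12 libraries, mt-Nd1, mt-Cytb, mt-Tn and mt-Tp kept their calls, and mt-Nd2 (edgeR adjusted p = 0.0518), mt-Nd4 (0.0843), mt-Rnr1 (0.111), mt-Tl1 (0.136), mt-Atp8 (0.132) and mt-Tl2 (0.733) did not.

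An interaction fitted to all 12 libraries tested whether the effects differ (I53A minus its WT, less QKO minus its WT). The sets have separate controls. Of 24 mitochondrial genes tested, 6 had a higher effect in I53A and none a lower one by edgeR, where 18.0% of all 16501 genes tested were higher and 18.1% lower. The unadjusted p was under 0.05 for the same 6. DESeq2 gave 7 higher and none lower, where it called 5980 of the 26325 genes with counts in either direction. mt-Rnr1 rose in I53A and fell in the libraries labelled QKO, with a difference of 1.98 ± 0.35 on the log2 scale (edgeR adjusted p = 0.0018). mt-Tn did the same, with a difference of 2.96 ± 0.63 (edgeR adjusted p = 0.00257). In the I53A fit both calls were lost with the replicate block (edgeR adjusted p = 0.0554 for mt-Rnr1 and 0.0595 for mt-Tn). Replicate 3 of set 1 showed no rise of mt-Tn (ratio 0.958).

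The other 4 were genes that rose in I53A. mt-Nd5 differed by 0.71 ± 0.16 (edgeR adjusted p = 0.00486), mt-Nd6 by 0.85 ± 0.22 (0.0112), mt-Nd1 by 0.41 ± 0.09 (0.00218) and mt-Tc by 1.53 ± 0.35 (0.00342). All 6 kept their calls when any of the 12 libraries was left out. For mt-Co1 the difference was -0.04, with a 95% interval from -0.38 to 0.30, and for mt-Cytb -0.10, with a 95% interval from -0.29 to 0.08. Neither interval excludes 0. With the replicate block 9 genes were called, all higher, where 24.8% of all genes were higher and 24.1% lower in that fit, adding mt-Nd2 (adjusted p = 0.000716, 0.479 without it), mt-Te (0.00894) and mt-Tp (0.0472).

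The WT groups of the sets differed in the level and the make-up of mitochondrial RNA. Their genotype labels are the same, but cells, libraries and the naming of the alignments went with the set, so a cell difference and a preparation or alignment difference cannot be told apart. The mitochondrial share of WT in set 2 was 0.499 times that in set 1. Of 24 genes tested, 6 were higher and 8 lower in set 2 by edgeR, where 28.0% of all 16501 genes tested were higher and 29.4% lower. The groups did not overlap for 19 of the 24, against 64.6% of all genes tested.

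The 8 lower genes included 5 of the 7 abundant messenger RNAs. mt-Co1 was lower by a log2 fold change of -1.17 ± 0.11 (edgeR adjusted p = 2.46e-06), mt-Cytb by -0.88 ± 0.06 (1.27e-08) and mt-Nd1 by -0.49 ± 0.06 (8.51e-06). mt-Nd4 and mt-Nd6 were lower by -0.68 ± 0.15 and -0.71 ± 0.16, while mt-Nd2 at -0.37 ± 0.15 (edgeR adjusted p = 0.0596) and mt-Nd5 at -0.13 ± 0.12 did not pass. mt-Tl1 was lower by -2.82 ± 0.39 (edgeR adjusted p = 2.11e-05). The remaining 2 rested on single libraries: mt-Rnr2 at -1.996 ± 0.75 (edgeR adjusted p = 0.0479) came to -0.86 without WT replicate 3 of set 1 (adjusted p = 0.238), and mt-Tc at -0.68 ± 0.25 (0.0311) came to -0.44 (0.147). The call for mt-Rnr2 was also lost without I53A replicate 2 (edgeR adjusted p = 0.0550), QKO replicate 1, 2 or 3 (0.0653, 0.0647 and 0.0641) or WT replicate 1, 2 or 3 of set 2 (0.116, 0.0987 and 0.114). The call for mt-Tc was also lost without WT replicate 1, 2 or 3 of set 2 (edgeR adjusted p = 0.0557, 0.0704 and 0.0577).

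The 6 higher genes were the protein genes that follow one another between mt-Co1 and mt-Nd4: mt-Co2 (7013 to 7696), mt-Atp8 (7766 to 7969), mt-Atp6 (7927 to 8607), mt-Co3 (8607 to 9390), mt-Nd3 (9459 to 9806) and mt-Nd4l (9877 to 10173). In set 1 they had hardly any counts. Together they had 23 to 139 counts per library in set 1, or 0.00304% to 0.0251% of the mitochondrial counts. In set 2 they had 1670 to 3656 counts, or 0.534% to 1.04%.

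mt-Co2 had 13, 16 and 3 counts in WT of set 1 and 590, 649 and 1301 in WT of set 2. The ratio of its count shares was 67.8, with a 95% counting interval from 47.9 to 99.3. mt-Co3 had 6, 10 and 1 counts and 379, 416 and 891 counts, a ratio of 84.7 (52.7 to 146). Every library of set 2 was far above every library of set 1 for both genes.

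mt-Atp6 had 8, 8 and 11 counts in WT of set 1 and 520, 581 and 1319 in WT of set 2, a ratio of 76.5 (52.5 to 116). In I53A it had 9, 15 and 123 counts, so its log2 fold change of 2.63 ± 1.23 against WT came from replicate 3. The adjusted p was 0.146 by edgeR, 0.0107 by edgeR with the replicate block and 0.0139 by DESeq2. For mt-Nd4l the ratio was 95.9 (32.5 to 468) from 3 counts in WT of set 1 and 337 in WT of set 2, and for mt-Nd3 10.4 (4.23 to 33.2) from 5 and 61 counts. mt-Atp8 had 0 counts in all 6 libraries of set 1 and 28 in WT of set 2, which makes it at least 7.97-fold higher in set 2, taking 3 counts over the WT group of set 1 as the floor. Intervals and floors cover counting error only.

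Even in set 2 these genes stayed below their neighbours on the map. Per kilobase, mt-Co2 stood at 63.0, mt-Atp6 at 59.9 and mt-Co3 at 36.3 CPM per kb in WT of set 2, beside 4360 for mt-Co1 and 708 for mt-Nd4. Annotated nuclear genes that are listed as copies of mitochondrial DNA, or that lie beside one, also had more counts in set 2. Gm10925, for which RefSeq lists mt-Atp6 as a synonym (mm9, chromosome 1, 24620814 to 24621627), had 0 to 4 counts in WT of set 1, 0 to 12 in I53A, 586 to 1229 in WT of set 2 and 874 to 1261 in the libraries labelled QKO. Gm10222 lies beside it (24619243 to 24619539), has the same length as mt-Nd4l, 297 bases, and was picked after its values were seen. It had 17 to 119 counts in set 1 and 140 to 601 in set 2. Scaled to the library total, its sets overlapped: I53A replicate 3 had 9.46 CPM and WT replicate 2 of set 2 had 7.61 CPM. Gm13340 on chromosome 2 (22443623 to 22445167), which has the length of mt-Co1, had 0 or 1 count per library in set 1 and 60 to 122 in set 2.

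The alignments counted for set 1 carry the word unique in their names, those of set 2 do not, and no option for fragments with several alignments was set. The part of this difference in the 6 genes was not tested. In set 2, 2 of the listed nuclear copies could be tested between genotypes and neither was called by edgeR or DESeq2 (1 had an unadjusted p under 0.05), with a median log2 fold change of 0.31. Whether fragments shared with nuclear copies alter the values of the 6 genes was not tested in either set, so these values remain uncertain.

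**Figure D5:**
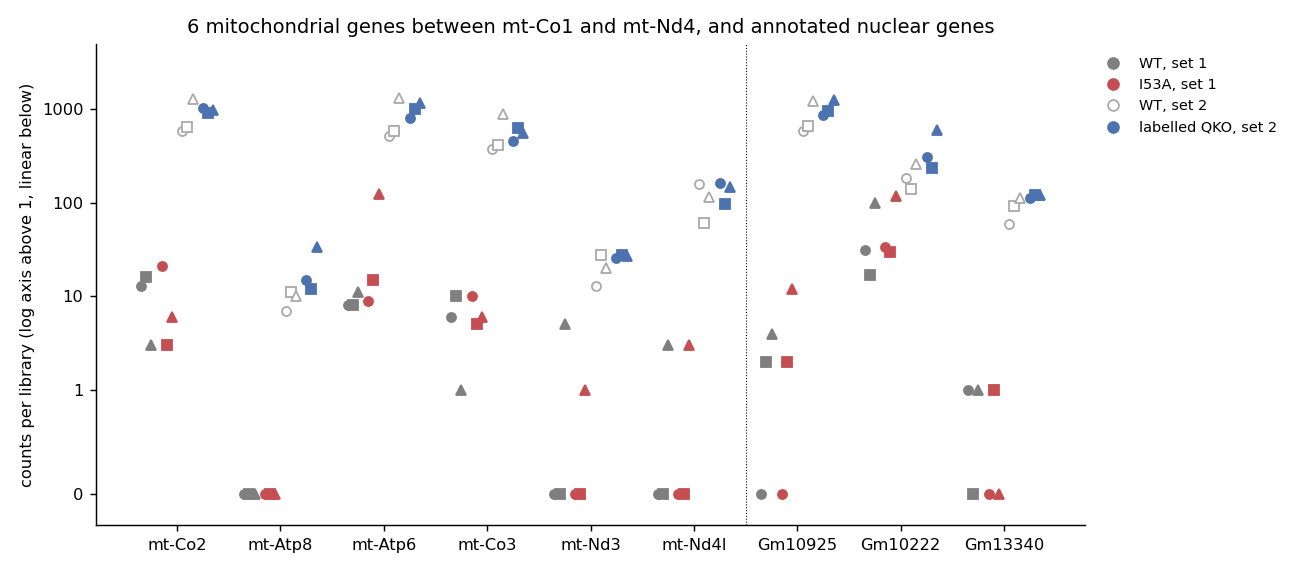
Counts per library (log axis above 1, linear below) of the 6 mitochondrial protein genes between mt-Co1 and mt-Nd4, left of the dotted line, and of 3 annotated nuclear genes, right of it, with colour for the group and shape for the replicate number. In set 1 mt-Atp8 is at 0 in all 6 libraries and Gm10925 at 0 to 12, while in set 2 mt-Co2 reaches 590 to 1301 counts.

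Nuclear genes that serve mitochondrial RNA did not move as one in either comparison. Of 10 tested genes of mitochondrial transcription and its termination, none was called in I53A by edgeR or DESeq2 and none had an unadjusted p under 0.05, with a median log2 fold change of -0.05, beside 18.1% and 17.4% of all genes called higher and lower. With the replicate block 2 rose and 1 fell. The polymerase Polrmt had -0.07 (edgeR adjusted p = 0.765) and Tfam -0.03 (0.787). In the libraries labelled QKO 4 rose and 1 fell, beside 28.7% and 29.0% of all genes: Polrmt rose by 0.22 ± 0.06 (edgeR adjusted p = 0.00203, and 0.197 with the spread of all 12 libraries) and Tfb1m, a methylase of the small-subunit rRNA, by 0.36, while Tfam fell by 0.16.

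Of 28 genes of mitochondrial RNA processing, stability and modification, 1 rose and 4 fell in I53A (5 and 8 with the replicate block), and 12 rose and 5 fell in the libraries labelled QKO. Among all genes tested the shares were 18.1% higher and 17.4% lower of all genes in I53A, 28.1% and 28.5% with the block, and 28.7% and 29.0% in the libraries labelled QKO. In I53A Ptcd3, a protein of the mitochondrial ribosome, rose by 0.55 (log2), and Pde12, which removes RNA tails, and Nsun4, which methylates mt-Rnr1, fell by 0.55 and 0.45. In the libraries labelled QKO Pde12 and Elac2, the enzyme that cuts precursors at the 3′ ends of tRNAs, rose by 0.61 and 0.49, while Nsun4, the RNA granule protein Grsf1 and Hsd17b10, a subunit of mitochondrial RNase P, fell by 0.46, 0.35 and 0.29. Lrpprc, which stabilises mitochondrial messenger RNAs, had 0.47 ± 0.18 in I53A (edgeR adjusted p = 0.0818). It was called with the replicate block (edgeR adjusted p = 1.29e-07), with all 12 libraries (0.0165), without WT replicate 3 (0.0333) and by DESeq2 (0.0327). In the libraries labelled QKO Lrpprc had 0.08 (edgeR adjusted p = 0.125, and 0.0286 with library totals alone). In I53A Elac2 had 0.27 (edgeR adjusted p = 0.0901), and was called with the replicate block (0.000163), with all 12 libraries (0.0119) and without WT replicate 3 (0.0328). Trmt10c, listed as Rg9mtd1, had 0.11 and 0.02.

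Nuclear subunits of the respiratory chain were read against the shares of all genes called higher and lower, which were 18.1% and 17.4% in I53A, 28.1% and 28.5% with the replicate block, and 28.7% and 29.0% in the libraries labelled QKO. Complex I had 3 higher and 4 lower of 35 tested, complex III 1 higher of 9, and complexes II and IV and ATP synthase none of 4, 11 and 15 by edgeR. In these last 3 lists 2, 1 and 1 genes had an unadjusted p under 0.05, and DESeq2 called 0, 1 and 0. With the replicate block complex I had 10 higher and 9 lower, complex II 1 and 3, complex III 3 and 1, complex IV 1 and 5 and ATP synthase 5 and 3. Ndufa10 rose by 0.50 (log2). The 75 nuclear subunits together took 1.07%, 1.06% and 0.944% of the library in WT and 1.06%, 1.05% and 0.962% in I53A, which overlapped. In the libraries labelled QKO they took 1.14% in each, above the 1.04%, 1.05% and 1.05% of WT. ATP synthase had 7 higher and 2 lower of 15 there. Atp5a1, a subunit of the catalytic head, rose by 0.62 and Atp5g1 by 0.53, while Atp5g2 fell by 0.16 and Atp5b by 0.10. Complex I had 8 higher and 5 lower of 36 and complex II 1 and 3 of 4. Complex III had 2 higher and 3 lower of 9, and complex IV 3 and 3 of 11.

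Proteins of the mitochondrial ribosome and the enzymes that charge tRNAs also went both ways. Of 46 large-subunit ribosomal proteins 5 rose and 3 fell in I53A (15 and 5 with the replicate block), and 19 rose and 8 fell in the libraries labelled QKO, beside 18.1% and 17.4%, 28.1% and 28.5%, and 28.7% and 29.0% of all genes in these 3 fits. For the small subunit the counts were 1 and 4 of 30 in I53A (8 and 7 with the block), and 11 and 6 of 30 in the libraries labelled QKO. Of 22 aminoacyl-tRNA synthetases 1 rose and 6 fell in I53A (2 and 9 with the block), with Iars2 down by 0.71, and 11 rose and 6 fell in the libraries labelled QKO. Mars2 rose in both, by 0.43 and 0.38.

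Genes of mitochondrial DNA upkeep included Tk2, a thymidine kinase that supplies nucleotides, which fell by 0.80 in I53A and by 0.57 in the libraries labelled QKO. Of the 14 tested, none rose and 2 fell in I53A by edgeR and by DESeq2 (4 were higher at an unadjusted p under 0.05, and 5 and 5 moved with the block), and 5 rose and 5 fell in the libraries labelled QKO. Of all genes 18.1% rose and 17.4% fell in I53A, and 28.7% and 29.0% in the libraries labelled QKO. The DNA polymerase Polg had 0.14 in I53A (edgeR adjusted p = 0.138, 0.0159 with the replicate block and 0.0482 with all 12 libraries) and -0.09 in the libraries labelled QKO (0.0946), where it was called lower without WT replicate 2 of set 2 (0.0145). Of 10 regulators of mitochondrial growth, 2 rose and 2 fell in I53A (4 and 3 with the block), and 5 rose and 1 fell in the libraries labelled QKO. Ppargc1b, a coactivator of genes of respiration, fell by 0.99 in I53A and rose by 0.84 in the libraries labelled QKO, while Myc rose by 0.82 and 0.59 and Esrrb fell by 0.60 and 0.30. Ppargc1a had too few counts to be tested.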

How the data were processed

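The authors deposited raw counts per gene, 1 table for each of 12 RNA-seq libraries in 4 groups of 3. Per the file headers, featureCounts 1.6.3 counted read pairs by gene name on a GENCODE annotation of NCBIM37 (mm9), with no option for strand, overlapping genes or fragments with several alignments. Fragments that touch more than 1 gene can thus be lost, and 16 of the 37 members overlap another one. Others adjoin without a gap, such as mt-Rnr1 (to 1024), mt-Tv (1025 to 1093) and mt-Rnr2 (from 1094). A fragment longer than a tRNA can reach into its neighbours, so the loss is not limited to the 16. Per the file headers, the names of the set 1 alignments hold the words tophat and unique. The submitters' processing notes name HISAT2, which leaves the aligner of each set unsettled.

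Counts were scaled by TMM, filtered with filterByExpr and tested with edgeR 4.0.16 (quasi-likelihood, robust, R 4.3.3), two-sided, with Benjamini-Hochberg adjustment over all genes tested and a threshold of 0.05. The steps were tested on simulated data. The 6 libraries of a set gave the spread of its comparison, and all 12 that of the difference and of WT against WT. CPM values per library use the plain library total. SE is the log2 fold change divided by the root of the F statistic. DESeq2 1.42.0, other scalings and filters, a replicate block and each library left out were alternatives.

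Members, lists and tests were chosen with earlier results of these data known. Every gene starting with mt- was a member, and those passing the filter were named. From each list of nuclear genes up to 3 called genes per direction were eligible to be named, by smallest p. Polrmt, Tfam, Lrpprc, Elac2, Rg9mtd1 (Trmt10c), Polg and Ppargc1a were always named, and Slirp is not in the annotation under that name. Of 6 listed nuclear copies of mitochondrial DNA 3 were in the annotation. Same-numbered libraries of set 1 deviated together from their group means (r = 0.229, 0.258 and 0.491 for numbers 1, 2 and 3), so these numbers were taken to pair the libraries. Replicates 1 and 2 correlated as much when crossed (r = 0.241 and 0.218), and their I53A alignments carry each other's numbers, so the pairing rests mainly on replicate 3 standing apart. All replicate pairs differed by more than sampling noise (chi-square per degree of freedom 2.25 to 29.7).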

Additional observations from a re-analysis of the deposited data

Results flagged for a closer look

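For 6 mitochondrial genes the effect of I53A differed from that of the libraries labelled QKO by edgeR's interaction test over 12 libraries, each with a positive difference (I53A effect minus QKO effect, log2). The differences were 1.98 for mt-Rnr1 (adjusted p = 0.0018), 2.96 for mt-Tn (0.00257), 1.53 for mt-Tc (0.00342), 0.85 for mt-Nd6 (0.0112), 0.71 for mt-Nd5 (0.00486) and 0.41 for mt-Nd1 (0.00218). In the fits of the single sets mt-Rnr1 and mt-Tn were called in opposite directions, mt-Nd1 was called higher in both, and mt-Tc, mt-Nd5 and mt-Nd6 were called in I53A but not in the libraries labelled QKO. The I53A calls of mt-Rnr1 and mt-Tn were lost with the replicate block (edgeR adjusted p = 0.0554 and 0.0595), and mt-Tn did not rise in replicate 3. The direction of the 6 differences held in each of the 12 fits that left out 1 library.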

How the results depend on the processing

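The limits are 3 libraries per group, a possible batch that sets replicate 3 of set 1 apart, and low counts for tRNAs and for the 6 protein genes from mt-Co2 to mt-Nd4l. In I53A against WT the count of 8 called members became 4 to 8 with 1 library left out. Without the filter on low counts it became 5 of 30 tested, where 5453 of all 24663 genes tested were called. In the libraries labelled QKO the count of 10 became 8 to 13 with 1 library left out. With the spread of all 12 libraries it became 4, where 6825 of all 16501 genes tested were called. With 1 library left out the rRNA share difference of set 2 ran from -0.000631 to 0.00250 percentage points. The mt-Co1 change in I53A turned to 0.015 over all 12 libraries, 0.0051 with 1 CPM in 3 libraries, 0.0065 with RLE size factors, 0.014 with library totals, 0.0016 with DESeq2, 0.0024 with the replicate block and 0.000020 with TMM over nuclear genes. For mt-Nd5 in set 2, library totals gave 0.0086. In these cases the cause was not tested, beyond fewer samples or another scale. With 1 library left out, log2 changes in I53A ran from -0.12 to 0.095 for mt-Co1, -1.04 to 0.40 for mt-Co2, -0.35 to 0.084 for mt-Tp, -0.11 to 0.57 for mt-Tl1, -2.07 to 2.48 for mt-Th, -0.24 to 0.056 for Polrmt and -0.063 to 0.0014 for Tfam. In set 2 they ran from -0.36 to 0.30 for mt-Co3, -0.12 to 0.48 for mt-Tw, -0.0014 to 0.47 for mt-Co2, -0.12 to 0.59 for mt-Nd4l, -0.056 to 0.0017 for mt-Nd5 and -0.055 to 0.081 for Rg9mtd1. The replicate block moved the count of called members from 8 to 11 in I53A, from 10 to 9 in set 2 and from 6 to 9 for the difference. The block fit of set 2 called 9080 of all 15439 genes tested. In set 2 same-numbered libraries did not deviate together (r = 0.0236, -0.0039 and 0.0420), so the numbers there are names only, and its block took the call from mt-Tl1 (adjusted p = 0.0657). In I53A replicates 1 and 2 alone gave 9 called members of 17 tested, where 8343 of all 15706 genes tested were called. There mt-Rnr1 (edgeR adjusted p = 0.0569) and mt-Nd2 (0.0657) lost their calls. mt-Rnr2 (0.000667), mt-Nd4 (1.2e-07) and mt-Te (0.000553) gained one.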
